A study of Mus musculus with 12 samples.

Results

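Histone deacetylases remove acetyl groups from lysines of histones and of other proteins. The members described here carry the symbols *Hdac1* to *Hdac9* and *Hdac11*, and *Hdac10* was not among them. These 10 symbols were looked up in the gene annotation and matched 11 of the 37991 Ensembl gene IDs counted in every library, because *Hdac4* is split into 2 gene models. They were grouped by enzyme class: class I (*Hdac1*, *Hdac2*, *Hdac3*, *Hdac8*), class IIa (*Hdac4*, *Hdac5*, *Hdac7*, *Hdac9*), class IIb (*Hdac6*) and class IV (*Hdac11*).

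As background, class I enzymes are mainly nuclear, and HDAC1 and HDAC2 are the catalytic subunits of the Sin3, NuRD and CoREST corepressor complexes, while HDAC3 works within the NCoR/SMRT complex. Class IIa enzymes have little catalytic activity of their own, bind MEF2 transcription factors and leave the nucleus when kinases phosphorylate them. HDAC6 is a cytoplasmic enzyme that acts on tubulin and the chaperone HSP90, and HDAC11 is the sole class IV enzyme. In the rodent hippocampus HDAC2 and HDAC3 are known as brakes on memory formation.

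Poly(A) RNA-seq was used to ask which hippocampal mRNAs differ when the stress-inducible gene *Gadd45a* is deleted. Hippocampi came from C57BL/6N mice, 6 labelled *Gadd45a*-KO (Gadd45a-/-) and 6 labelled *Gadd45a*-WT (wild type siblings), with an age of 6 to 7 months on the labels. Every mouse had been trained in passive avoidance (PA), in which a mouse learns to keep out of a compartment where it received a shock, and was killed 1 h later, and no untrained mouse is in these groups. The knockout is constitutive, with the first 3 exons replaced by a neomycin cassette, so all cell types carry it.

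The depth was 44594261 to 55540601 reads on genes per library. The share of unique alignments without a gene or with an ambiguous one separated the labels, at 15.1% to 16.4% in *Gadd45a*-WT and 13.7% to 14.9% in *Gadd45a*-KO, and its part in any comparison below was not tested. Reads on *Gadd45a* itself went against the labels, with 2.58 ± 0.48 CPM (SD, n = 6; CPM, gene counts scaled to library size with TMM factors) under the label *Gadd45a*-WT and 21.4 ± 1.07 CPM (n = 6) under *Gadd45a*-KO. Counts per gene do not separate the deleted exons from the one that remains. The antisense gene *E230016M11Rik*, which overlaps *Gadd45a*, was on the contrary lower under the label *Gadd45a*-KO, at 0.163 CPM beside 3.48 CPM. *Gadd45a*-WT and *Gadd45a*-KO therefore stand for the label of a library in all that follows, and so does every direction. All 5 hippocampal marker genes examined were detected, with log2 fold changes below 0 (median -0.25, none with an unadjusted p under 0.05) and a summed level of 547.5 to 627 CPM in *Gadd45a*-WT and 397 to 599 CPM in *Gadd45a*-KO. None of the marker genes of the other cell types was at 0. The 6 oligodendrocyte markers, the 3 thalamic markers, 2 of 5 endothelial and 1 of 4 astrocyte markers were higher under the label *Gadd45a*-KO at an unadjusted p under 0.05, with none past 1% FDR. Their summed levels ran from 2317 to 3679 CPM (*Gadd45a*-WT) against 3005 to 7311 CPM (*Gadd45a*-KO) for oligodendrocytes, and from 41.2 to 78.2 against 47.5 to 259 CPM for thalamus. *Gadd45a*-KO replicate 3 held both highest sums, and replicate 2 had the next highest for thalamus (171 CPM), while the medians were closer, at 3015 and 3599 CPM for oligodendrocytes and 63.7 and 75.3 CPM for thalamus.

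No histone deacetylase mRNA passed the test between the labels, and every estimate lay close to 0. At 1% FDR, 0 of the 11 gene models were called by the quasi-likelihood test of edgeR with Benjamini-Hochberg adjustment, while 2.65% of all 16399 genes tested were, 2.62% as lower and 0.0244% as higher. DESeq2 also called 0, beside 3.8% of the genes it tested, and 0 models reached an unadjusted p under 0.05 in either tool, against 13.7% of all genes in edgeR. The CPM ranges of both labels overlapped for all 11 models, while 3.31% of all genes had ranges without overlap. Among 11 models a count of 0 is near shares of 2.65%, 3.8% or 3.31% and does not set the deacetylases apart. Of the log2 fold changes (*Gadd45a*-KO over *Gadd45a*-WT), 6 lay below 0 and 5 above, from -0.07 to 0.10, and 64.8% of all genes had no larger absolute value than the last. Their median absolute size was 0.032, beside 0.0605 over all genes tested. Neither this value nor the 64.8% was matched to the members' range of mean level. Each 95% confidence interval included 0, and over the 11 models these intervals reached from 0.860-fold to 1.18-fold, so that larger changes than these lay outside the interval of each mRNA. A two-sided exact permutation test of each model alone also found no p under 0.05 in the 924 ways to split the 12 libraries, where 0.00216 is the smallest p possible.

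**Figure D1:**
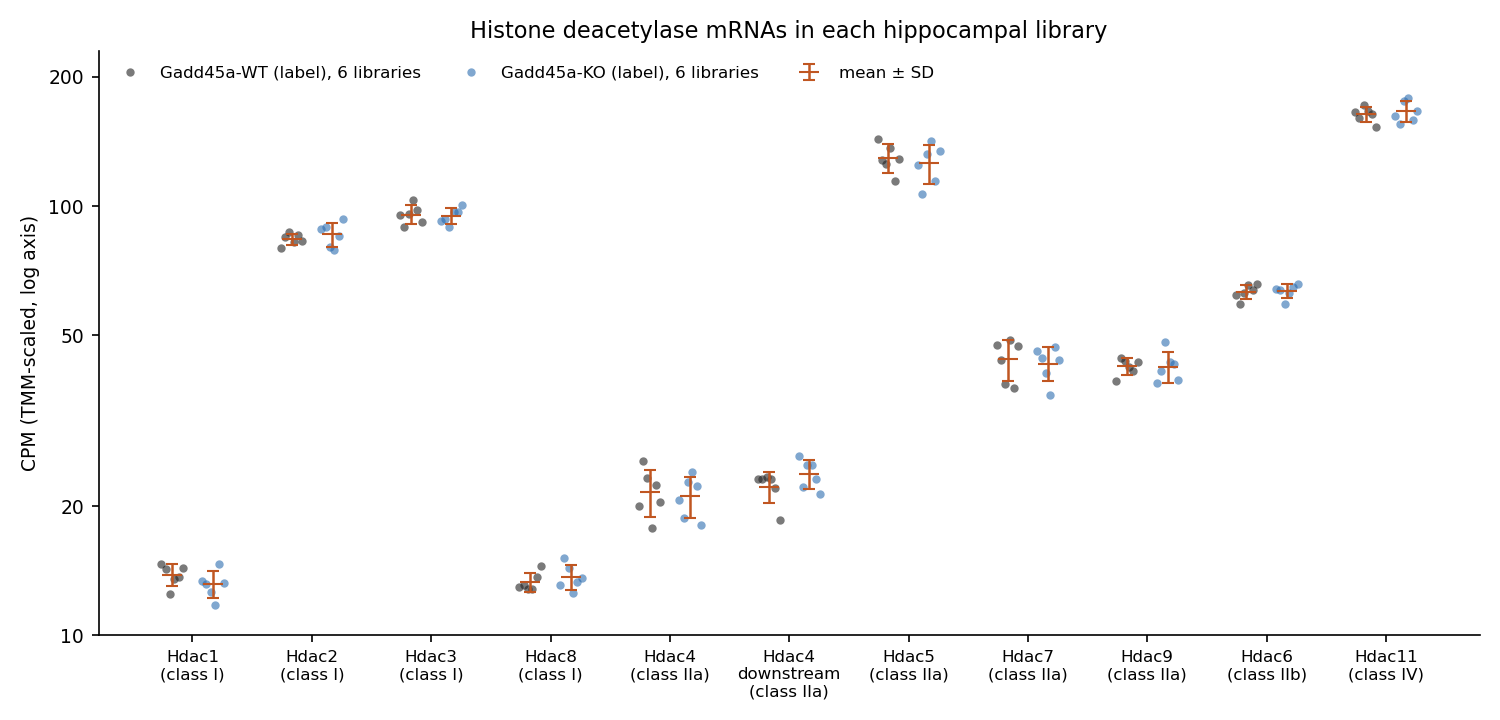
Level of each histone deacetylase gene model in each of the 12 libraries in CPM (log axis), with black points for the label *Gadd45a*-WT, blue points for *Gadd45a*-KO and orange bars for the mean ± SD of 6 libraries. The black and the blue points overlap for all 11 models, and CPM is not corrected for gene length, so heights compare labels and not genes.

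Among class I genes, *Hdac1* and *Hdac2*, which encode the paired catalytic subunits of the nuclear corepressor complexes, had estimates on opposite sides of 0. *Hdac1* (ENSMUSG00000028800, NCBIM37 chr4:129193348-129219957, minus strand) had a lowest, median and highest level of 12.5, 14.0 and 14.7 CPM in *Gadd45a*-WT libraries. In *Gadd45a*-KO libraries these were 11.8, 13.2 and 14.7 CPM. Of the *Gadd45a*-KO libraries, 5 of 6 lay below the *Gadd45a*-WT mean, but replicate 5 nearly reached the highest *Gadd45a*-WT library. With a standard error (SE) of 0.057, the log2 fold change of -0.07 (95% CI -0.19 to 0.05, adjusted p = 0.659, edgeR) was the lowest of all members.

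*Hdac2* (ENSMUSG00000019777, chr10:36694350-36721695, plus strand) is the class I gene whose product is best known for limiting memory formation. Its lowest, median and highest levels were 79.9, 83.9 and 86.9 CPM in *Gadd45a*-WT libraries and 78.8, 86.8 and 93.4 CPM in *Gadd45a*-KO libraries. The *Gadd45a*-KO libraries spread to both sides of the *Gadd45a*-WT range, with a coefficient of variation of 6.56% against 2.96%. The log2 fold change was 0.04 (95% CI -0.05 to 0.13, adjusted p = 0.810, edgeR).

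*Hdac3* (ENSMUSG00000024454, chr18:38095498-38114642, minus strand), the enzyme of the NCoR/SMRT complex, gave 89.3, 95.6 and 103 CPM as lowest, median and highest value under *Gadd45a*-WT and 89.5, 95.1 and 100.6 CPM under *Gadd45a*-KO. The medians differed by less than the SD within either label, 4.89 and 3.91 CPM. *Hdac8* (ENSMUSG00000067567, chrX:99479978-99700698, minus strand), whose product deacetylates the cohesin subunit SMC3, was as rare in reads as *Hdac1*. It ran from 12.8 to 14.5 CPM in *Gadd45a*-WT and from 12.6 to 15.1 CPM in *Gadd45a*-KO libraries, with medians of 13.0 and 13.5. The log2 fold changes were -0.01 for *Hdac3* (adjusted p = 0.956, edgeR) and 0.04 for *Hdac8* (adjusted p = 0.839, edgeR).

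Class IIa genes had 4 of 5 gene models below 0, of which *Hdac4* makes up 2 of the 5, and again none passed the test. The median log2 fold change was -0.03, beside 0.0033 over all genes tested, and its sign changed in some of the alternative fits. *Hdac5* (ENSMUSG00000008855, chr11:102055746-102091480, minus strand) had the most reads of the class. Its levels were 114, 129 and 143 CPM (lowest, median, highest) in *Gadd45a*-WT and 107, 128 and 141.5 CPM in *Gadd45a*-KO libraries. Both labels covered nearly the same range, with replicate 2 of *Gadd45a*-KO lowest and replicate 1 of *Gadd45a*-WT highest, and the log2 fold change was -0.04 (95% CI -0.19 to 0.10, adjusted p = 0.872, edgeR).

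*Hdac7* (ENSMUSG00000022475, chr15:97623095-97674933, minus strand), best known from endothelial cells and thymocytes, ran from 37.7 to 48.8 CPM in *Gadd45a*-WT and from 36.3 to 46.8 CPM in *Gadd45a*-KO libraries. Its exons share 29 bases with *Slc48a1* on the opposite strand, and the counting took strand into account. *Hdac9* (ENSMUSG00000004698, chr12:34732451-35213754, minus strand), which like its class binds MEF2, ran from 39.2 to 44.3 CPM and from 38.7 to 48.3 CPM. The labels overlapped in both genes, and the log2 fold changes were -0.03 for *Hdac7* (adjusted p = 0.921, edgeR) and -0.0033 for *Hdac9* (adjusted p = 0.990, edgeR).

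The annotation holds 2 gene models with the symbol *Hdac4*, the class IIa gene needed for learning in mice. The main model (ENSMUSG00000026313, chr1:93829334-94044970, minus strand) was followed on the same strand, after a gap of 1580 bases, by a model with 1 exon of 2392 bases (ENSMUSG00000073617, chr1:93825362-93827753). The latter is called the downstream model here. The main model had 17.8, 21.4 and 25.5 CPM (lowest, median, highest) in *Gadd45a*-WT and 18.1, 21.5 and 24.0 CPM in *Gadd45a*-KO libraries. This gave a log2 fold change of -0.03 (SE 0.087, 95% CI -0.22 to 0.16, adjusted p = 0.936, edgeR).

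The downstream model had 18.6, 23.1 and 23.4 CPM in *Gadd45a*-WT and 21.3, 24.0 and 26.2 CPM in *Gadd45a*-KO libraries. In *Gadd45a*-WT, 5 libraries lay within 22.0 to 23.4 CPM and replicate 6 stood below them. Its log2 fold change of 0.10 (SE 0.064, 95% CI -0.04 to 0.23, unadjusted p = 0.146, adjusted p = 0.569, edgeR) was the highest and the one with the smallest p among the members. When the reads of both models were summed, the log2 fold change was 0.04 (adjusted p = 0.886, edgeR), so the sign for *Hdac4* depends on the model counted.

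Per kilobase, the downstream model was higher than the main model in all 12 libraries. With all annotated exons as length, the ratio of the levels was 1.78 ± 0.264 (SD, n = 6) in *Gadd45a*-WT, from 1.55 to 2.22. In *Gadd45a*-KO it was 1.94 ± 0.157 (n = 6), from 1.77 to 2.17. Both ranges overlap, although replicates 2, 3, 5 and 6 of *Gadd45a*-WT lay below every *Gadd45a*-KO library. Replicate 4 of *Gadd45a*-WT had the highest ratio of all, with the lowest level of the main model. Counts per gene do not show whether reads between the models join them.

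**Figure D2:**
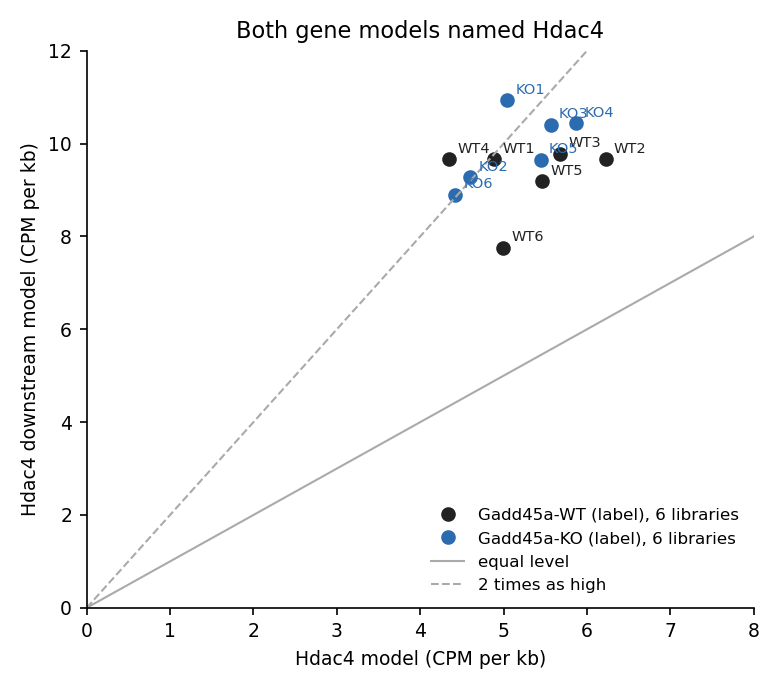
Level of the *Hdac4* downstream model against the main *Hdac4* model in CPM per kilobase of exon, 1 point for each of the 12 libraries, coloured by label, with a solid line for equal levels and a dashed line for a ratio of 2. All points lie above the solid line, between ratios of 1.55 and 2.22. Replicates 2, 3, 5 and 6 of *Gadd45a*-WT, at 1.55 to 1.72, lie below the lowest *Gadd45a*-KO ratio of 1.77. Replicates 1 (1.98) and 4 (2.22) of *Gadd45a*-WT lie above it.

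*Hdac6*, the only class IIb gene among the members, was among the steadiest of them (ENSMUSG00000031161, chrX:7507246-7525015, minus strand). It had 59.2, 63.2 and 65.9 CPM (lowest, median, highest) in *Gadd45a*-WT and 59.1, 63.8 and 65.9 CPM in *Gadd45a*-KO libraries. The log2 fold change was 0.00 (SE 0.035, 95% CI -0.07 to 0.08, adjusted p = 0.975, edgeR), the narrowest interval of the members.

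*Hdac11* (ENSMUSG00000034245, chr6:91106659-91124686, plus strand), the class IV gene, whose product removes long fatty acyl groups from lysines, had the most reads of all members. Its levels were 152.5, 165 and 172 CPM in *Gadd45a*-WT and 155, 164.5 and 178 CPM in *Gadd45a*-KO libraries. Replicates 3 and 4 of *Gadd45a*-KO were above all others, while 3 of 6 *Gadd45a*-KO libraries lay below the *Gadd45a*-WT mean. The log2 fold change was 0.02 (95% CI -0.06 to 0.11, adjusted p = 0.889, edgeR).

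**Figure D3:**
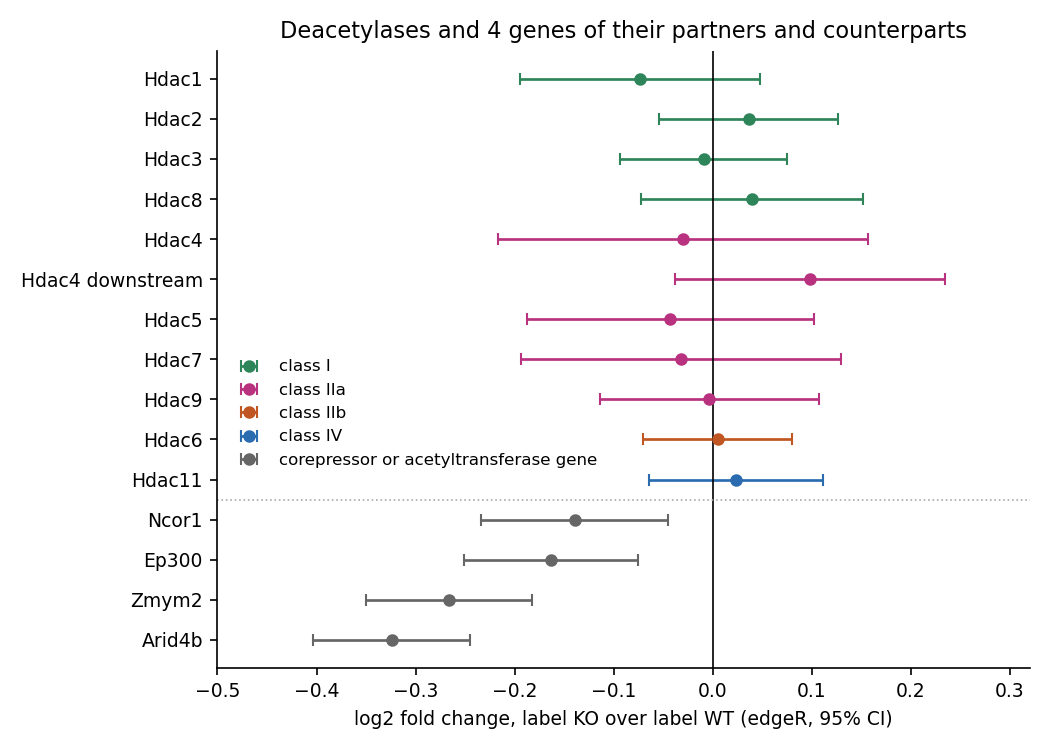
Log2 fold change of *Gadd45a*-KO over *Gadd45a*-WT by label for the 11 gene models, coloured by class, and below the dotted line for 4 genes of partner complexes and acetyltransferases, with 95% confidence intervals from edgeR. All 11 intervals of the deacetylases cross 0. Those of *Ncor1*, *Ep300*, *Zmym2* and *Arid4b* lie below 0, of which *Zmym2* and *Arid4b* passed 1% FDR. These 4 genes had the smallest p of their lists and so were picked by their values, unlike the deacetylases. Of the genes with the smallest p in the other lists, not drawn here, *Gatad2b*, *Hsp90aa1*, *Sirt2* and *Brd2* had intervals across 0. That of *Camk1* lay above 0 and that of *Grin2a* below.

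The spread between libraries of one label was wider than counting error for every member. The coefficient of variation of the members within a label ran from 2.96% to 12.5%, whereas counting error alone gave 1.10% to 3.86%. The widest values belonged to class IIa, with 12.5% and 11.1% for the main *Hdac4* model, 10.96% for *Hdac7* in *Gadd45a*-WT and 10.3% for *Hdac5* in *Gadd45a*-KO. The median over the members was 5.12% in *Gadd45a*-WT and 7.27% in *Gadd45a*-KO, and 5.36% and 5.40% over the 7772 tested genes within the members' range of mean level (13.5 to 165 CPM). In whole tissue, fewer cells of a type and less RNA per cell cannot be told apart. The oligodendrocyte and thalamic markers had median log2 fold changes of 0.45 and 0.91 between the same labels, or 0.22 and 0.61 without the library highest in thalamic markers of each label (*Gadd45a*-WT replicate 2 and *Gadd45a*-KO replicate 3), and the part of those cells in the members' values was not tested. Without these libraries, again 0 of 11 models passed 1% FDR, with log2 fold changes from -0.06 to 0.10.

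To compare genes with each other, CPM was divided by the length of all annotated exons of each gene in kilobases. Class shares were computed with this length only, and the level of *Hdac1*, a class I gene, varied strongly with the length used. On this scale class I held 36.5% of the members' summed level in *Gadd45a*-WT and 36.6% in *Gadd45a*-KO. Class IV, which is *Hdac11* alone, held 31.5% and 31.9%, and class IIa 24.0% and 23.4% (without the *Hdac4* downstream model). Class IIb, here *Hdac6* alone, held 8.05% and 8.07%. The summed level of the 10 genes was 134.9 ± 2.39 CPM per kilobase (SD, n = 6) in *Gadd45a*-WT and 135.1 ± 3.03 (n = 6) in *Gadd45a*-KO. The share of each class among these genes was within 1 SD between the labels.

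*Hdac11* was the highest member in all 12 libraries, at 42.8 ± 2.02 CPM per kilobase (SD, n = 12), which is 1.81 times the level of *Hdac3* (23.7 ± 1.05). *Hdac2* (18.9 ± 0.96), *Hdac5* (14.5 ± 1.27) and *Hdac6* (10.9 ± 0.39) came next. Below them stood the *Hdac4* downstream model (9.61 ± 0.82), *Hdac7* (7.86 ± 0.76), the main *Hdac4* model (5.21 ± 0.59), *Hdac9* (4.40 ± 0.28), *Hdac1* (3.92 ± 0.27) and *Hdac8* (2.79 ± 0.16). All 10 pairs of neighbours in this order differed (two-sided exact sign-flip permutation test within libraries, adjusted p from 0.000814 to 0.00147 over the 10 pairs). The ranges of levels overlapped nonetheless for *Hdac6* and the *Hdac4* downstream model, for that model and *Hdac7*, for the main *Hdac4* model and *Hdac9*, and for *Hdac9* and *Hdac1*. With the longest annotated transcript as length, 8 of 10 neighbouring pairs differed, and *Hdac3* with *Hdac2* (adjusted p = 0.339) and *Hdac7* with the *Hdac4* downstream model (adjusted p = 0.180) did not pass the same exact test. The paper reports that coverage leaned toward the poly(A) end of transcripts in both genotypes, which division by length does not correct. Its part in this order, and in the ratio of both *Hdac4* models, was not tested.

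The place of *Hdac1* in this order depends on the reads that could be counted. A processed pseudogene of *Hdac1*, named *Gm10093* in the annotation and *Hdac1-ps* in RefSeq (ENSMUSG00000061062, chr17:78890905-78892881, plus strand), matches the longest coding *Hdac1* transcript in 99.4% of 1965 aligned bases. A read of 51 bases that fits both places has more than 1 alignment, and such reads were kept out of the gene counts. The following 30 bases of coding sequence are shown because they are the same at both loci, lying within 153 bases without a difference (*Hdac1*, NCBIM37 chr4:129194662-129194691, minus strand; *Hdac1-ps*, chr17:78892202-78892231, plus strand).
Hdac1: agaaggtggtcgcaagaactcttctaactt
Hdac1-ps: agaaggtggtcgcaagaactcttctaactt
The next 30 bases are shown because no other such coding stretch holds more differences, with the 4 differing bases in capitals (*Hdac1*, chr4:129200219-129200248, minus strand; *Hdac1-ps*, chr17:78891374-78891403, plus strand).
Hdac1: ttacgtcAatgaCatcgtcCtggccatccT
Hdac1-ps: ttacgtcGatgaTatcgtcTtggccatccC

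Over the longest coding transcript of *Hdac1*, 1511 of 1988 windows of 51 bases (76.0%) occur elsewhere in the genome, and 477 occur once. Of the latter, 245 touch the coding sequence. For the longest coding transcript of every other member this share was 0%. The pseudogene itself held 3 to 12 reads per library, while *Hdac1* held 572 to 751.

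Divided by all exons, *Hdac2* stood 4.85 ± 0.40 times (SD, n = 12 libraries) above *Hdac1*. With only the unique windows of the longest coding transcript as length, a choice made after the data were seen, *Hdac1* rose to 28.3 ± 1.92 CPM per kilobase, and the ratio of *Hdac2* to *Hdac1* was 0.941 ± 0.077, from 0.811 to 1.05. With the unique windows of all exons it was 3.01 ± 0.25, as all exons of *Hdac1* held 1799 such windows. The reads were those of the whole gene under each length and were not restricted to the windows. Dividing them by the windows of the longest coding transcript alone can therefore overstate *Hdac1*. Which of *Hdac1* and *Hdac2* was the more abundant mRNA was therefore not settled by these counts, and mismatches that the aligner allows were not modelled. The class shares were not recomputed with unique windows, so the makeup of the members by class was not settled either. *Hdac11* was first and *Hdac3* second under each of the 4 lengths. The comparison between labels is within one gene, to which the same windows apply in every library.

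**Figure D4:**
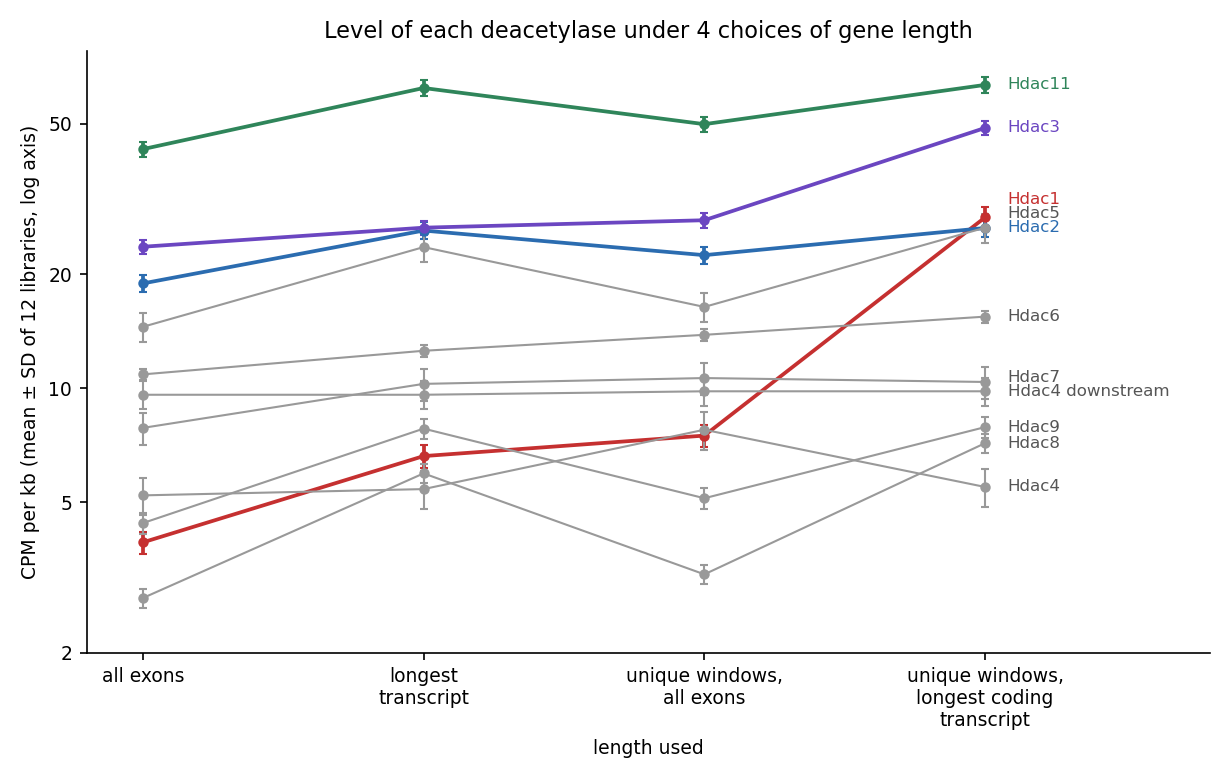
Mean level of each gene model over 12 libraries in CPM per kilobase (log axis, bars for SD) with 4 different lengths on the horizontal axis: all exons, longest transcript, and the 51-base windows that occur once in the genome, over all exons or over the longest coding transcript. *Hdac11* stays highest throughout, whereas *Hdac1* runs from 3.92 to 28.3 CPM per kilobase and meets *Hdac2* at the right. The reads are those of the whole gene under each length.

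The genes around the deacetylases were read from the same fit, as 10 lists of corepressor subunits, partners, opposing enzymes and memory genes. Of their 114 genes, 113 were tested, and 3 were lower and 0 higher in *Gadd45a*-KO at 1% FDR, to be read beside the 2.65% of all genes that passed. At an unadjusted p under 0.05 there were 15 lower and 1 higher, beside 13.7% of all genes tested (9.35% lower and 4.34% higher). DESeq2 called 6 lower and 0 higher at 1% FDR, to be read beside the 3.8% of all genes that it called.

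The NCoR/SMRT list, the corepressor that activates HDAC3, had 0 of 5 genes past the test. *Ncor1*, its scaffold and the gene with the smallest p, had a median of 312 CPM in *Gadd45a*-WT and 278.5 CPM in *Gadd45a*-KO libraries (log2 fold change -0.14, adjusted p = 0.113, edgeR). The median of the list was -0.07, beside 0.00 over all genes tested.

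In the Sin3 list, 1 of 15 genes fell, and this was *Arid4b*, a chromatin-binding subunit of the Sin3 complex. Its lowest, median and highest levels were 64.2, 67.5 and 71.3 CPM in *Gadd45a*-WT libraries. All 6 *Gadd45a*-KO libraries lay below that range, at 50.6, 53.6 and 57.4 CPM, and the log2 fold change was -0.32 (SE 0.037, adjusted p = 0.00011, edgeR). The median of the list was -0.01, with 9 of 15 genes below 0.

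In the CoREST list 1 of 9 genes fell, namely *Zmym2*, a zinc finger protein found with the deacetylases and the demethylase LSD1. It had 77.8, 85.2 and 88.6 CPM in *Gadd45a*-WT and 67.0, 69.4 and 75.1 CPM in *Gadd45a*-KO libraries, without overlap (log2 fold change -0.27, SE 0.039, adjusted p = 0.000865, edgeR). In the NuRD list 0 of 10 genes passed, with *Gatad2b* closest at -0.08 (adjusted p = 0.575, edgeR). The calls of *Arid4b* and *Zmym2* held in each of the 22 other fits made, from -0.35 to -0.21 and from -0.28 to -0.24.

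The partners of class IIa, which include the MEF2 factors, kinases and the Ywha adaptor proteins that hold phosphorylated enzymes in the cytoplasm, had 0 of 18 tested genes past the threshold, and *Mef2b* was too low to test. The smallest p was that of the kinase gene *Camk1*, at 0.10 (adjusted p = 0.352, edgeR). The partners and substrates of HDAC6 had 0 of 11, with *Hsp90aa1*, which encodes a form of HSP90, at 0.09 (adjusted p = 0.442, edgeR). The sirtuins, a second family of deacetylases that use NAD, had 0 of 7, with *Sirt2* at 0.08 (adjusted p = 0.482, edgeR). The 2 latter lists had medians of 0.01 and -0.03.

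Of the opposing acetyltransferases, 0 of 14 passed 1% FDR. *Ep300*, which encodes the coactivator p300, had 99.5 CPM as median in *Gadd45a*-WT and 88.8 CPM in *Gadd45a*-KO libraries, of which 5 of 6 lay below the *Gadd45a*-WT range (log2 fold change -0.16, adjusted p = 0.0327, edgeR). It passed a 5% but not the 1% FDR. The 3 BET genes, whose products read acetylated lysines, had values from -0.01 to 0.05, with *Brd2* at the smallest p (adjusted p = 0.606, edgeR).

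The memory genes linked to *Hdac2* or *Hdac3* had 1 of 21 genes past the threshold and 9 at an unadjusted p under 0.05, each of them lower in *Gadd45a*-KO, to be read beside the 2.65% and the 13.7% of all genes. The gene called was *Grin2a*, a subunit of the NMDA receptor, at 21.5, 39.0 and 55.7 CPM in *Gadd45a*-WT and 12.7, 14.4 and 17.7 CPM in *Gadd45a*-KO libraries (log2 fold change -1.40, SE 0.192, adjusted p = 0.000524, edgeR). *Grin2b*, another subunit of the receptor, had a log2 fold change of -1.46 (adjusted p = 0.0202, edgeR). Both were picked by the study from these same libraries, so their presence in the list is not independent evidence. The glutamate receptor gene *Gria2* (-0.27, adjusted p = 0.0202, edgeR) and *Creb1*, which encodes the transcription factor CREB (-0.17, adjusted p = 0.0412, edgeR), also passed 5% but not 1% FDR. These 3 genes are named after their values were seen. The median of this list was -0.11.

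**Figure D5:**
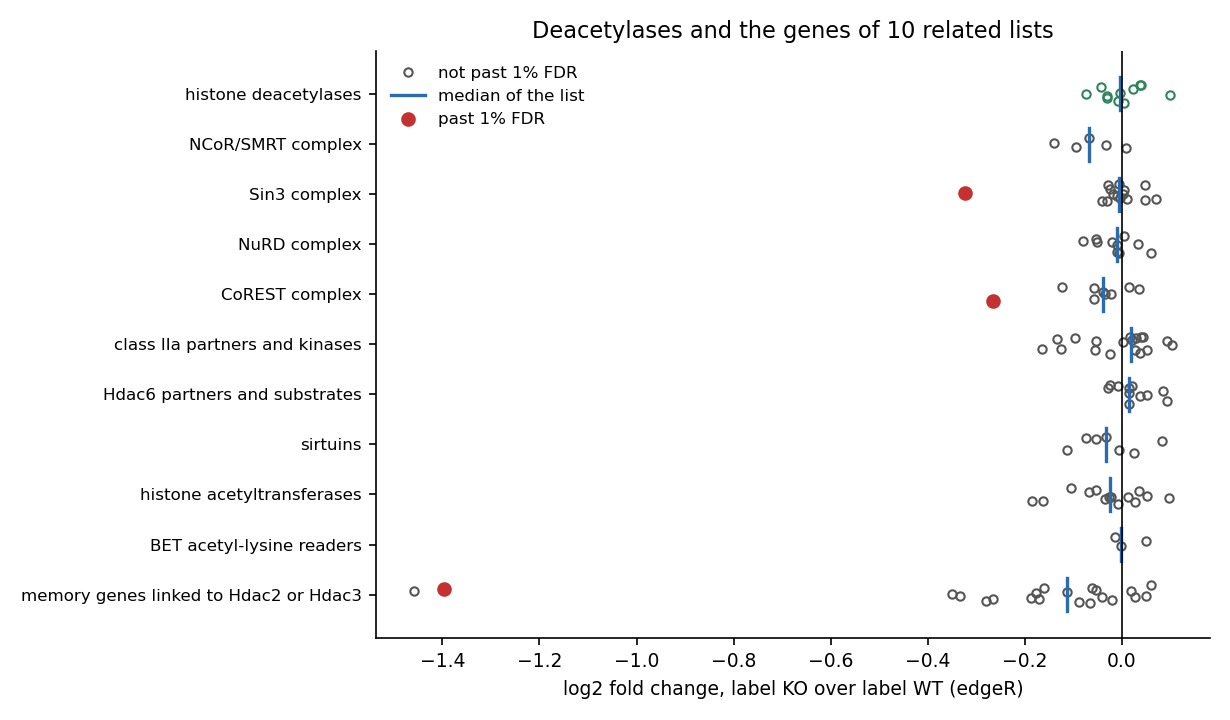
Log2 fold change of *Gadd45a*-KO over *Gadd45a*-WT by label for the 11 deacetylase models (green circles, top row) and the tested genes of 10 lists, with a blue line for the median of each list and filled red points for genes past 1% FDR. The deacetylases lie between -0.07 and 0.10, and the 3 red points are *Arid4b*, *Zmym2* and *Grin2a*.

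For the 2 members with the smallest p, the genes that followed them most closely from library to library were sought, using log2 CPM deviations from the label means over the 12 libraries. For the *Hdac4* downstream model these were *Glyctk*, *Nol6* and *Ldoc1l*, with Pearson's r of 0.906, 0.902 and 0.901. For *Hdac1* they were *Rwdd3*, *A230107N01Rik* and *Ccdc85a*, with r of 0.957, 0.950 and 0.930. Without the 2 libraries farthest from the median, r was 0.723 to 0.786 for the former and 0.864 to 0.918 for the latter. These are the top values out of all genes tested, so they describe likeness only, and the libraries share their depth and their reads on other genes. None of the 6 genes passed 1% FDR between the labels, with adjusted p from 0.721 to 0.982 (edgeR).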

How the data were processed

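RNA-seq of 12 hippocampi, 6 labelled *Gadd45a*-WT and 6 *Gadd45a*-KO, was used. The authors aligned single reads of 51 bases to NCBIM37/mm9 with TopHat 1.4.1 (up to 5 alignments per read), counted them per gene of Ensembl release 66 with HTSeq 0.5.4p3 and the strand taken into account, and deposited the counts without normalization. Alignments that were not unique entered no gene count. Rows that name no gene were left out of library sizes, and uniquely aligned reads without a gene or with an ambiguous one made up 13.7% to 16.4% of the total of these and the gene reads, more in each *Gadd45a*-WT than in any *Gadd45a*-KO library.

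Symbols, exons and lengths came from the GENCODE annotation of Ensembl release 65 on the same build, which named 37205 of 37991 gene IDs. Members, gene lists and tests were chosen with earlier results of these data known. Counts were filtered (filterByExpr), TMM-scaled and compared without covariates by the quasi-likelihood test of edgeR 4.0.16 (R 4.3.3) over all genes at 1% FDR. Each standard error is the absolute log2 fold change divided by the root of the F statistic. CPM per kilobase divides CPM by exon length. Neighbours in the order of levels were compared over 10 pairs, 1 more than planned, because *Hdac4* has 2 models. Windows of 51 bases were matched exactly to the whole genome on both strands. Permutation tests were run with Python 3.11.15 and numpy 2.4.6.

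Named genes were all members, *Gadd45a* with its antisense gene, from each list the genes past 1% FDR or else that with the smallest p, and the 3 genes most correlated with each of the 2 members of smallest p. Alternatives were DESeq2 1.42.0, RLE factors, other filters, 5% FDR, the replicate number as a block, length offsets, 1 surrogate variable (sva 3.50.0), leaving out each library, and, added after seeing the data, the summed *Hdac4* models, unique windows as length, and leaving out the library of each label highest in thalamic markers. The fits were tested on simulated data.

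Replicates are separate mice, per the study's methods. Pairs of libraries of one label differed by more than counting error (chi-square per degree of freedom 9.12 to 40.6 over 30 pairs). Replicate numbers were not taken to pair samples, since no source ties them to a shared animal, litter or day. In the data, 5 of 6 pairs of the same number correlated above 0.1, so a fit with the replicate number as a block is given below.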

Additional observations from a re-analysis of the deposited data

Results flagged for a closer look

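Of 22 groups of 6 values (11 gene models in each label), 1 held a library that stood apart by Dixon's test, where chance alone gives 1.1. The *Hdac4* downstream model had 18.6 CPM in *Gadd45a*-WT replicate 6, below the 22.0 to 23.4 CPM of the other 5 libraries, and the gap made up 0.710 of the whole range. Without that library the log2 fold change of the model was 0.06 (adjusted p = 0.760, edgeR), so no call changed with it.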

How the results depend on the processing

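The count of members past 1% FDR was 0 in each direction under all alternatives run, leave-one-out fits included, and at 5% FDR. Over 241 other estimates the log2 fold changes of the members ran from -0.10 to 0.14, with a lowest adjusted p of 0.262 (*Hdac4* downstream model, replicate block, edgeR). In 35 of them the sign changed, 14 for *Hdac9* and 8 for *Hdac3*. None of 88 class medians moved by more than 1 SD. The order of levels had 10 of 10 neighbouring pairs apart with all exons and 8 with each other length, and the order changed below *Hdac11* and *Hdac3*.

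The background counts changed more, from 430 lower and 4 higher genes. They were 660 and 18 with DESeq2, 272 and 9 with the length offset, 294 and 10 with the length offset and the replicate block, 265 and 2 with 1 surrogate variable, and 726 and 20 at 5% FDR. Without the library highest in thalamic markers of each label there were 214 lower genes, and leaving out 1 library at a time gave 239 to 467 lower genes. The count fell by more than 1.5 times without *Gadd45a*-WT replicates 3 (268), 5 (239) or 6 (261), or *Gadd45a*-KO replicates 1 (248), 2 (276) or 6 (248). The 3 lower genes of the lists became 6 with DESeq2 and 7 at 5% FDR. The count rose to 467 without *Gadd45a*-WT replicate 1 and to 450 without *Gadd45a*-KO replicate 5. The causes of these changes, the number of libraries among them, were not tested.

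A replicate block gave 509 lower and 5 higher genes and changed no call of a member. Libraries of the same number correlated with a mean r of 0.140. The mean r for different numbers was -0.0279. Because deviations were taken from the label means, this second value follows largely from the first and is no independent baseline. Only 1 *Gadd45a*-WT and 3 *Gadd45a*-KO libraries correlated best with their own number, a hint from the data and not the design. The depth gave counting errors of 1.10% to 3.86% for the members.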
